A study of Homo sapiens with 26 samples.

Results

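The genes described here are 40 genes that act in G2 and mitosis, the stage of the cell cycle in which duplicated chromosomes are condensed, attached to a spindle and pulled apart. They were taken from a list of named genes, and each is represented by 1 probe set, the brightest on average over all arrays among those assigned to that gene alone. All 40 had such a probe set, out of 15096 genes that passed a filter on low signals. Every member passed that filter, with a signal at or above the array median on all 24 replicated arrays.

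Cells enter mitosis when cyclin A and cyclin B activate the kinase CDK1, with Aurora and Polo-like kinases acting beside it. Kinetochores then tie chromosomes to spindle microtubules, motor proteins shape the spindle, and a checkpoint holds the cells until every chromosome is attached. Many of these genes are transcribed together late in the cycle, under FOXM1, B-Myb and the MuvB core, and are silenced by the DREAM complex when cells stop dividing. Their summed level is therefore widely read as a measure of how many cells in a culture are dividing. In bulk RNA, fewer cells in mitosis and less RNA per cell cannot be told apart.

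The arrays hold RNA of 786-O, an established line of human clear cell renal carcinoma that lacks functional VHL and makes the transcription factor HIF-2a without its normal destruction. The groups of 3 arrays each were compounds 41, 76, 40 and 77, which the series text introduces as HIF-2a inhibitors and which carry code numbers only, DMSO (vehicle), Blk (taken as untreated by elimination), WT8 and PRC3. WT8 and PRC3 are customary names of 786-O sublines given wild-type VHL and empty vector, but the labels do not say what they are, and each such subline may be 1 clone. pTR and pTV had 1 array each and are not explained by the labels. No dose or treatment time is stated in the labels. Whether the 3 arrays of a group stand for 3 cultures is not stated either, and p-values here describe spread between arrays, some or all of which may be technical.

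The deposited means of 24 columns lay between 140.7 and 141.4, and those of replicates 2 and 3 of compound 40 were 163.7 and 171.5, so these 2 columns were scaled in another way. On WT8 replicate 3 the 3 prime over 5 prime signal ratio was 2.37 (ACTB) and 1.32 (GAPDH), while no other array exceeded 1.39 and 1.06. The deposited signal of EPAS1, the gene of HIF-2a, ranged over 252 to 869. Renal and epithelial markers were present on all 26 arrays (PAX8 at 761 to 1329, KRT18 at 822 to 2098 normalized signal). The leukocyte markers PTPRC and CD14 and the endothelial marker VWF were below the floor of 20 on all 26 arrays, while PECAM1 (45.5 to 117) and COL1A1 (30.3 to 145) were above it on all 26. The leukocyte marker CD3E and the endothelial marker KDR were above it on 7 arrays each, at up to 31.05 and 35.07. CDH5, also endothelial, was above it on 1. The fibroblast marker LUM averaged 95.4 ± 15.6 in WT8 and 33.4 ± 8.7 in PRC3 (SD, n = 3 each). The summed signal of 6 fibroblast markers was 206 to 209 with compound 41, 189 to 246 with compound 76, 129 to 224 with compound 40 and 198 to 219 with compound 77, against 241 to 281.5 with DMSO, and 247 to 306 in WT8, against 200.5 to 229 in PRC3. The same sum was 180.6 to 237.1 in Blk, so every Blk array also lay below every DMSO array. CA12, on the renal list, was lower with compound 41 (1.84-fold, adjusted p = 0.00654 in limma) and in WT8 (2.02-fold, adjusted p = 0.000902). The part of these markers in the results was not tested.

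The mean log2 signal of the 40 members on each array gives the pattern in outline. It was 8.96, 9.20 and 8.86 with compound 41, 9.17, 9.28 and 9.10 with compound 76, 9.08, 9.27 and 9.29 with compound 40, and 9.48, 9.30 and 9.24 with compound 77, against 9.42, 9.55 and 9.57 with DMSO. Every array of compounds 41, 76 and 40 lay below every DMSO array, and compound 77 overlapped DMSO. It was 9.04, 9.11 and 8.96 in WT8, against 9.43, 9.45 and 9.32 in PRC3, and these groups did not overlap. DMSO itself did not stand apart from Blk, which measured 9.38, 9.52 and 9.497.

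**Figure D1:**
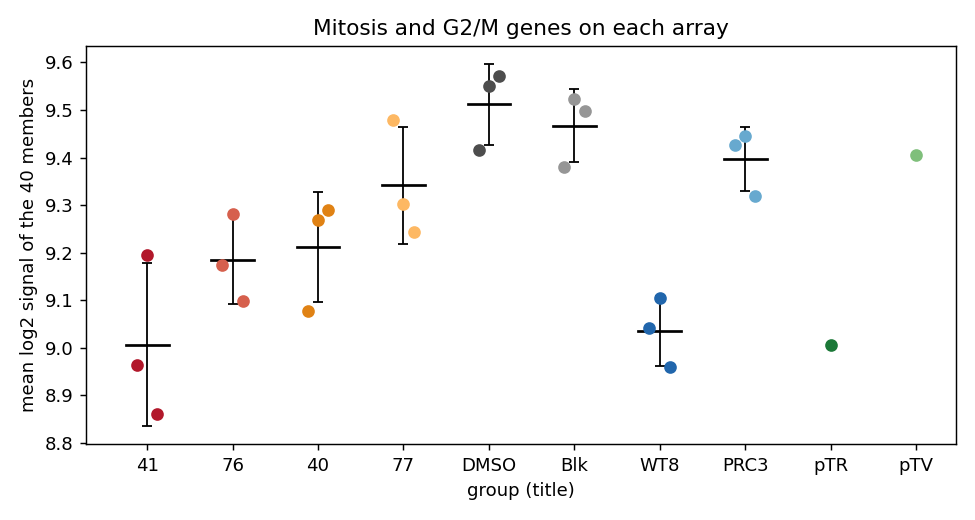
Mean log2 signal of the 40 mitosis and G2/M genes on each array (points), with the group mean and SD (bars, n = 3) for the 8 replicated groups; pTR and pTV are single arrays. The vertical axis does not start at 0; compounds 41, 76 and 40 lie below DMSO on every array, and WT8 lies below PRC3.

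A moderated F test in limma over the 8 group means called 26 of the 40 members at an adjusted p below 0.05, against 16.7% of all 15096 genes. With the replicate number as a block it called 32, and with arrays scaled to 1 median it called 14. The shares of all genes under these settings are not given. The smallest adjusted p belonged to DLGAP5, a spindle assembly protein (8.93e-05), followed by CCNA2 (0.000284) and UBE2C (0.000289). The 14 members that did not pass were CCNB2, CDK1, CDC25B, CDC25C, BUB1, TTK, MAD2L1, AURKA, PLK1, PLK4, CENPA, CENPF, KIF23 and CDC20. Of these, CDK1 (adjusted p = 0.0503 in the F test) and CENPA (0.0841) were called with compound 41 below. The lowest group mean belonged to WT8 for 17 members, to compound 41 for 16, to compound 40 for 6 and to compound 76 for 1. DMSO had the highest mean for 17 members.

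Compound 41 against DMSO asks what one of the inhibitors does to these genes. All 40 members had a lower mean with compound 41, and limma called 17 of them lower and none higher (42.5%, against 1.64% of all genes called lower and 1.7% called higher). The median log2 change was -0.51, against 0.01 for all genes. On 28 members every compound 41 array lay below every DMSO array, which happened for 10.5% of all genes. The members called belonged to most roles: 3 of 6 cyclins and CDK regulators, 1 of 5 checkpoint proteins, 3 of 5 kinetochore proteins, 7 of 11 motor and spindle proteins, and 3 of 4 in the group of BIRC5, TOP2A, MKI67 and LMNB1. None of the 5 mitotic kinases and none of the 3 genes of mitotic exit passed, and the difference between roles was not tested.

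Among the cyclins, CCNA2, which encodes cyclin A and is needed for S phase and mitotic entry, measured 497, 628 and 434 with compound 41, against 922, 1008 and 986 with DMSO. The groups did not overlap, and the level was 1.89-fold lower (log2 change -0.92, SE 0.15, adjusted p = 0.000563 in limma). CCNB1, the main mitotic cyclin, and its partner CDK1 were also called, at log2 changes of -0.51 and -0.56. CCNB2 and the CDK-activating phosphatases CDC25B and CDC25C were not, at -0.25, -0.06 and -0.33.

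PRC1, which bundles microtubules at the midzone during cytokinesis, had the smallest p of any member. It measured 962, 1115 and 885 with compound 41, against 1631, 1929 and 1979 with DMSO. The fall was 1.87-fold (log2 change -0.90, SE 0.14, adjusted p = 0.000302), and it was called under all 14 alternative settings tried. KIF20A, a kinesin of the same midzone, measured 370.0, 433 and 408 with compound 41, against 835, 705 and 729 with DMSO. Its level was 1.87-fold lower (adjusted p = 0.0152), with no overlap. ECT2, the exchange factor that starts the cleavage furrow, measured 587, 712 and 558 with compound 41, against 922, 1088 and 1021 with DMSO. It was 1.64-fold lower (adjusted p = 0.0172). KIF23, another midzone kinesin, had a log2 change of -0.43 and was not called. KIF11, the motor that pushes spindle poles apart, fell 1.62-fold, and ASPM, DLGAP5 and KIF4A fell by 0.68, 0.51 and 0.54 on the log2 scale.

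At the kinetochore, CENPA, the histone H3 variant that marks centromeres, measured 191, 289 and 205.5 with compound 41, against 442, 450.2 and 445 with DMSO. The DMSO arrays were close together and all above the compound 41 arrays, and the level was 1.98-fold lower (adjusted p = 0.036). NDC80, the microtubule-binding subunit of the outer kinetochore, measured 167, 234 and 178 with compound 41, against 331, 321 and 353 with DMSO. NDC80 was 1.75-fold lower (adjusted p = 0.036), and NUF2, its binding partner, was 1.59-fold lower (adjusted p = 0.0265). BUB1B, which encodes the checkpoint protein BUBR1, measured 311, 485 and 398 with compound 41, against 609.85, 674 and 749 with DMSO. It was the only checkpoint member called (1.72-fold lower, adjusted p = 0.00609), and BUB1, BUB3, MAD2L1 and TTK had log2 changes between -0.42 and -0.10.

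LMNB1, which encodes lamin B1 of the nuclear envelope, had the largest change of any member with compound 41. It measured 281, 526 and 291 with compound 41, against 549, 825 and 927 with DMSO. Replicate 2 of compound 41 was the high one and DMSO replicate 1 the low one, and the groups still did not overlap (2.14-fold lower, log2 change -1.10, SE 0.22, adjusted p = 0.00532). MKI67, the proliferation antigen used in pathology, and BIRC5, the survivin subunit of the chromosomal passenger complex, were 1.49-fold and 1.51-fold lower.

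The members with the largest changes that did not pass were AURKA, FOXM1, TPX2 and CENPF. AURKA, the kinase of centrosome maturation, measured 873, 827 and 659.5 with compound 41, against 1052, 1177 and 1393 with DMSO (log2 change -0.62, adjusted p = 0.153). FOXM1, the transcription factor that drives much of this group, measured 242, 325 and 227 with compound 41, against 373, 387 and 405 with DMSO (log2 change -0.57, adjusted p = 0.0725). Both genes were lower on every compound 41 array. TPX2, which activates AURKA at the spindle, measured 1229.9, 1392 and 1075 with compound 41, against 1750.2, 1820.0 and 1706 with DMSO (log2 change -0.52, adjusted p = 0.0727). CENPF, a kinetochore protein of late G2, measured 756, 724 and 595 with compound 41, against 1017, 928 and 1011 with DMSO (log2 change -0.52, adjusted p = 0.0665). These genes did not overlap either. With the replicate number as a block, AURKA (adjusted p = 0.0259), FOXM1 (0.038), TPX2 (0.0208), CENPF (0.031) and TOP2A (0.0336) passed as well. That made 22 members, and the calls among all kept probe sets rose too, from 889 to 1525.

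UBE2C and CDC25B moved least, at log2 changes of -0.08 and -0.06. UBE2C, the ubiquitin-conjugating enzyme of the anaphase-promoting complex, measured 2523, 2626 and 2108 with compound 41, against 2298, 2691 and 2671 with DMSO, and the groups overlapped. The count of calls depended on the scaling and on single arrays. It was 3 (CCNA2, KIF20A and PRC1) with arrays scaled to 1 median, 3 without compound 41 replicate 1, 5 without its replicate 3, and 8, 9 and 7 without DMSO replicates 1, 2 and 3, while the median change stayed between -0.59 and -0.42 when any 1 array was left out. CCNA2, KIF11 and PRC1 were called whichever of the 6 arrays was left out. Of all kept probe sets, 211 were called lower with arrays scaled to 1 median, against 478 in the reported fit. Such counts are not given for the fits with 1 array left out.

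Many promoters of late cell cycle genes carry the cell cycle homology region (CHR), to which the MuvB core binds, and CCAAT boxes bound by NF-Y. Promoter windows of 250 bases before and 50 after the transcription start were available from RefSeq (GRCh38.p14) for 33 of the 40 members. Where a gene had several windows, the one at the gene's annotated 5 prime end was used, otherwise the first listed. The CHR letters TTTGAA on either strand, or TTCGAA, which reads the same on both strands, lay wholly between 100 bases before and 50 after the start in 19 members (57.6%), against 7.46% of 27305 promoters. CCAAT on either strand occurred anywhere in the window in 24 members (72.7%), against 35.7% of all. CHR and CCAAT matches were counted separately, and they can share letters: in MKI67 the last A of the CHR letters is also the first letter of ATTGG, which is CCAAT on the other strand. A match is a description of the letters and not evidence of binding. The 10 members called lower with compound 41 that hold CHR letters near the start are printed here as 30 bases each, 5′ to 3′ along the gene's strand, with 1 match of the CHR letters in capitals.

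PRC1, chr15:90994538-90994567, minus strand: cccgtggcgcggTTTGAAattttgcggggc
BUB1B, chr15:40161034-40161063, plus strand: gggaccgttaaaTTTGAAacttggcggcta
KIF11, chr10:92593090-92593119, plus strand: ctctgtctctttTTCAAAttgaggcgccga
KIF4A, chrX:70290058-70290087, plus strand: ctccgggacggaTTTGAAacttggcggtta
DLGAP5, chr14:55191565-55191594, minus strand: cggtgcggcaagTTTGAAtttcgtggaggc
ECT2, chr3:172750746-172750775, plus strand: agagcagcttagttTTTGAAtcggttgtgg
CENPA, chr2:26786026-26786055, plus strand: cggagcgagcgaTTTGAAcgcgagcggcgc
NDC80, chr18:2571542-2571571, plus strand: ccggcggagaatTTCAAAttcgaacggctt
NUF2, chr1:163321958-163321987, plus strand: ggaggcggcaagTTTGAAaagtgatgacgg
MKI67, chr10:128126435-128126464, minus strand: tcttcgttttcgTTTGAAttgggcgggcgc

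Counted from the start, the capitals begin at position -20 in PRC1, -23 in BUB1B, -28 in KIF11 and -34 in KIF4A. In DLGAP5, ECT2 and NUF2 they lie in the first transcribed bases, and in NDC80 they span the start. With compound 41, the members' median log2 change was -0.52 in the 19 with and -0.42 in the 14 without, and 10 and 6 of them were called. This difference was not tested. CCNA2, CCNB1, KIF20A and NEK2 are among the members that hold CCAAT and no such CHR letters in the window. AURKA, FOXM1, TPX2, UBE2C, BIRC5, TTK and BUB3 had no window in the table used.

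**Figure D2:**
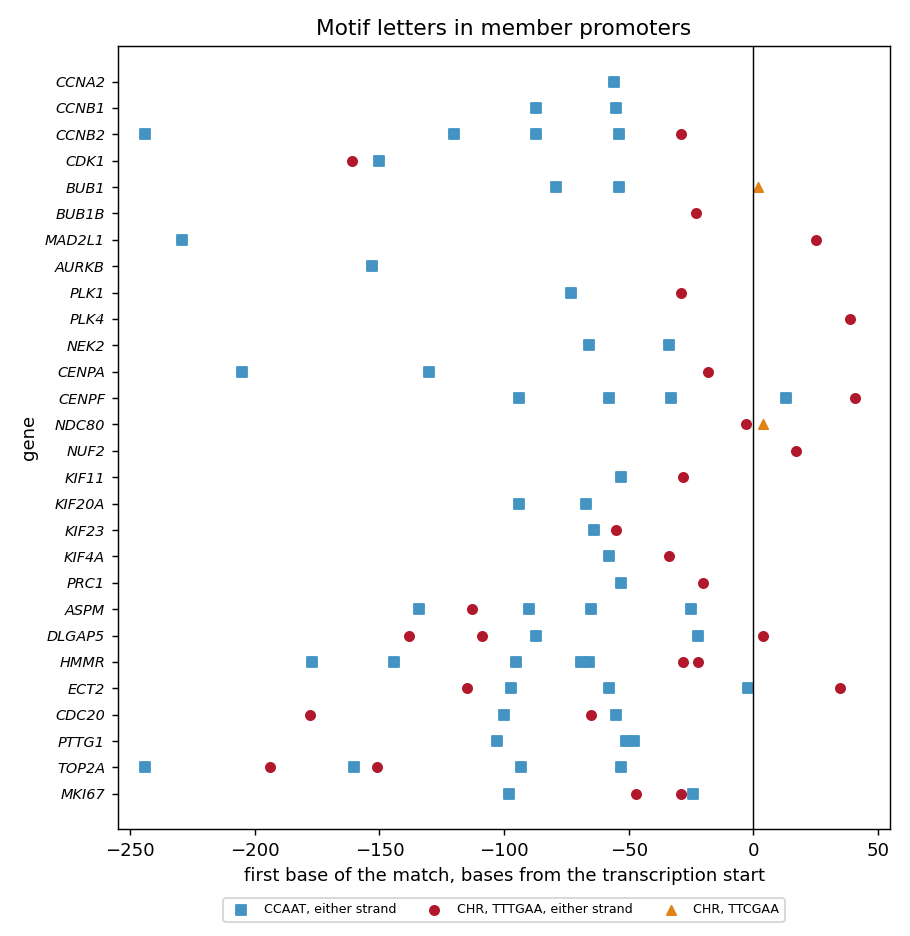
Positions of CCAAT (squares) and CHR letters (circles and triangles) in the promoter windows of the members with at least 1 match, in bases from the transcription start (0 line). Of the 19 members with CHR letters within 100 bases before the start or after it, 15 also hold CCAAT, on either side of the CHR letters.

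Compound 76 lowered the mean of all 40 members, but limma called only LMNB1 and PRC1 (5% of members, against 0.768% of all genes called lower and 1.01% called higher). Across members the median change was -0.33 on the log2 scale, against 0.01 for all genes, and 23 members had no overlap with DMSO (background 8.66%). LMNB1 measured 352, 382 and 415 with compound 76, against 549, 825 and 927 with DMSO (1.96-fold lower, adjusted p = 0.0208). PRC1 measured 1220, 1321 and 1107 with compound 76, against 1631, 1929 and 1979 with DMSO (1.52-fold lower, adjusted p = 0.021). CENPA and KIF20A had larger changes than PRC1 but missed the threshold. CENPA measured 316, 278 and 225 with compound 76, against 442, 450.2 and 445 with DMSO (log2 change -0.72, adjusted p = 0.226). KIF20A measured 549, 431 and 435 with compound 76, against 835, 705 and 729 with DMSO (log2 change -0.69, adjusted p = 0.115). Neither gene overlapped between the groups, and the same was true of NUF2 and of CENPE, a kinetochore motor. NUF2 measured 380.4, 385 and 326 with compound 76, against 499, 476 and 544 with DMSO (log2 change -0.48). CENPE measured 198, 197 and 200.2 with compound 76, against 257, 288 and 283 with DMSO (log2 change -0.47). With the replicate number as a block 4 members were called, KIF20A (adjusted p = 0.0351) and DLGAP5 (0.0374) joining the others. Calls among all kept probe sets rose with the block from 474 to 849. With arrays scaled to 1 median none was called, and the same held without compound 76 replicate 1 or 3 or DMSO replicate 2 or 3, while without compound 76 replicate 2 it was 1. Of all kept probe sets, that scaling called 111 lower, against 212 in the reported fit.

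With compound 40 limma called LMNB1, HMMR and NEK2, all lower (7.5% of members, against 0.417% of all genes called lower and 0.437% called higher), and 36 members had a lower mean. The members' median change was -0.24 on the log2 scale, against 0.00 for all genes, and 20 members did not overlap with DMSO (background 7.85%). LMNB1 measured 361, 326 and 286 with compound 40, against 549, 825 and 927 with DMSO, the largest change of any member in any comparison of the 4 compounds with DMSO (2.32-fold lower, adjusted p = 0.00797). HMMR, a spindle-associated hyaluronan receptor, measured 741, 735 and 794 with compound 40, against 1163, 1259 and 1095 with DMSO (1.55-fold lower, adjusted p = 0.0126). NEK2, a kinase that separates centrosomes, measured 367, 293 and 393 with compound 40, against 476, 590.1 and 614 with DMSO (1.60-fold lower, adjusted p = 0.0403). None of the 3 genes overlapped with DMSO.

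CENPA, KIF23, NUF2 and ECT2 had changes of -0.65 to -0.74 with compound 40 and were not called. CENPA measured 193, 312 and 317 with compound 40, against 442, 450.2 and 445 with DMSO, and NUF2 measured 373, 264 and 329.6 with compound 40, against 499, 476 and 544 with DMSO. Both were below DMSO on all 3 arrays. KIF23 measured 126, 78.8 and 179 with compound 40, against 162, 229.8 and 209 with DMSO, and the groups overlapped (log2 change -0.71, adjusted p = 0.282). ECT2 measured 823, 436 and 739 with compound 40, against 922, 1088 and 1021 with DMSO (log2 change -0.65, adjusted p = 0.0685). Replicate 2 was the lowest compound 40 array for KIF23 and for ECT2. CDC25C, BUB3, CDC20 and KIF2C, a microtubule depolymerase, had higher means with compound 40, by at most 0.18 on the log2 scale. The count was 5 without compound 40 replicate 1, 1 without its replicate 2, 0 without DMSO replicate 2 and 1 without DMSO replicate 3. Without replicates 2 and 3, the columns scaled in another way, compound 40 is a single array assumed to vary like the other groups. None was then called and the median was -0.42, which does not show what the scaling did.

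Compound 77 gave no call in limma (0.0397% of all genes were called lower and 0.139% higher). An unadjusted p below 0.05 was found for 6 members (15%), against 8.19% of all genes. With 33 members lower, the median change was -0.13, and 7 members did not overlap with DMSO (background 6.95%). HMMR had the smallest p, with 1014, 823 and 698 with compound 77, against 1163, 1259 and 1095 with DMSO (log2 change -0.49, 95% interval -0.73 to -0.24, adjusted p = 0.132). LMNB1 measured 426, 494 and 355 with compound 77, against 549, 825 and 927 with DMSO (log2 change -0.83, interval -1.28 to -0.38, adjusted p = 0.182). For both genes all compound 77 arrays were below DMSO. PRC1 measured 1752, 1224 and 1202 with compound 77, against 1631, 1929 and 1979 with DMSO, with replicate 1 inside the DMSO range (adjusted p = 0.326). BIRC5 measured 938, 736 and 763 with compound 77, against 1033, 1048 and 1180.0 with DMSO (adjusted p = 0.455). Without replicate 1, the array of compound 77 with the highest member mean, HMMR and PRC1 were called and the median was -0.22.

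**Figure D3:**
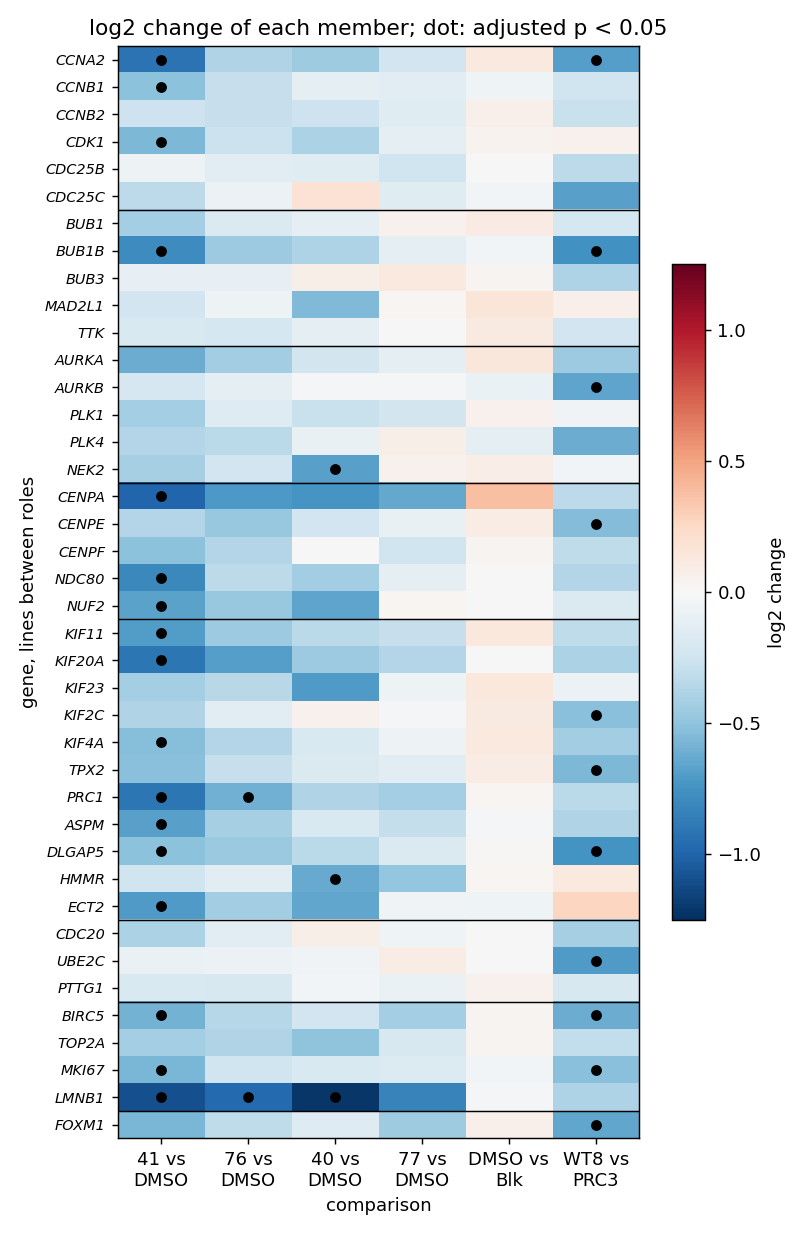
Log2 change of each member (rows, grouped by role) in 6 comparisons (columns), from blue (lower) to red (higher); a dot marks an adjusted p below 0.05 in limma. The column of compound 41 is blue throughout with 17 dots, compounds 76 and 40 have 2 and 3 dots, and compound 77 and DMSO have none.

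The compounds were also compared with each other, in 6 pairs. Doses are not given, so each pair compares the treatments as they were done. CCNA2 was lower with compound 41 than with compound 77, at 497, 628 and 434 with compound 41, against 930.0, 808 and 738 with compound 77. The difference was -0.68 on the log2 scale (95% interval -0.98 to -0.38, adjusted p = 0.0291, and 0.0378 when adjusted over all 6 pairs). NEK2 was lower with compound 40 than with compound 77, at 367, 293 and 393 with compound 40, against 562, 632 and 541 with compound 77. This difference was -0.73 (interval -1.05 to -0.41, adjusted p = 0.0368, and 0.0387 over the 6 pairs). The further probe set of NEK2 changed by -0.22 with compound 40 and by 0.11 with compound 77 against DMSO, and that of CCNA2 by -0.80 with compound 41 and -0.30 with compound 77. No array of the main probe sets overlapped in either case, and these 2 were the only calls, where 0.238% (41 and 77) and 0.311% (40 and 77) of all genes were called lower.

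No member passed in the other 4 pairs in limma, where 0.0596% (41 and 76), 0.185% (41 and 40), 0.0199% (76 and 40) and 0.192% (76 and 77) of all genes were called lower. An unadjusted p below 0.05 was found for 15% of members and 6.32% of all genes between compounds 41 and 76, for 40% and 13% between 41 and 40, for 10% and 9.91% between 76 and 40, and for 17.5% and 8.39% between 76 and 77. In the pairs with a call these shares were 47.5% and 9.74% (41 and 77), and 15% and 12.3% (40 and 77). The mean of 38 members was lower with compound 41 than with compound 77, at a median log2 difference of -0.35. An absent call does not show that compounds act alike, and the intervals were wide. For LMNB1 the difference of compound 41 minus compound 40 lay between -0.33 and 0.57, and that of compound 41 minus compound 76 between -0.57 and 0.32. PRC1 differed by -0.52 between compounds 41 and 40 (interval -0.80 to -0.25, adjusted p = 0.0804), and HMMR by 0.50 between compounds 76 and 40 (interval 0.25 to 0.75, adjusted p = 0.116). Both calls ended with arrays scaled to 1 median or with signals as deposited. Between compounds there was 1 call without compound 41 replicate 1 or 3, 0 without compound 77 replicate 2, 1 without compound 77 replicate 1 or 3 or compound 40 replicate 3, 8 without compound 40 replicate 1, and 4 without WT8 replicate 1 or 3.

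**Figure D4:**
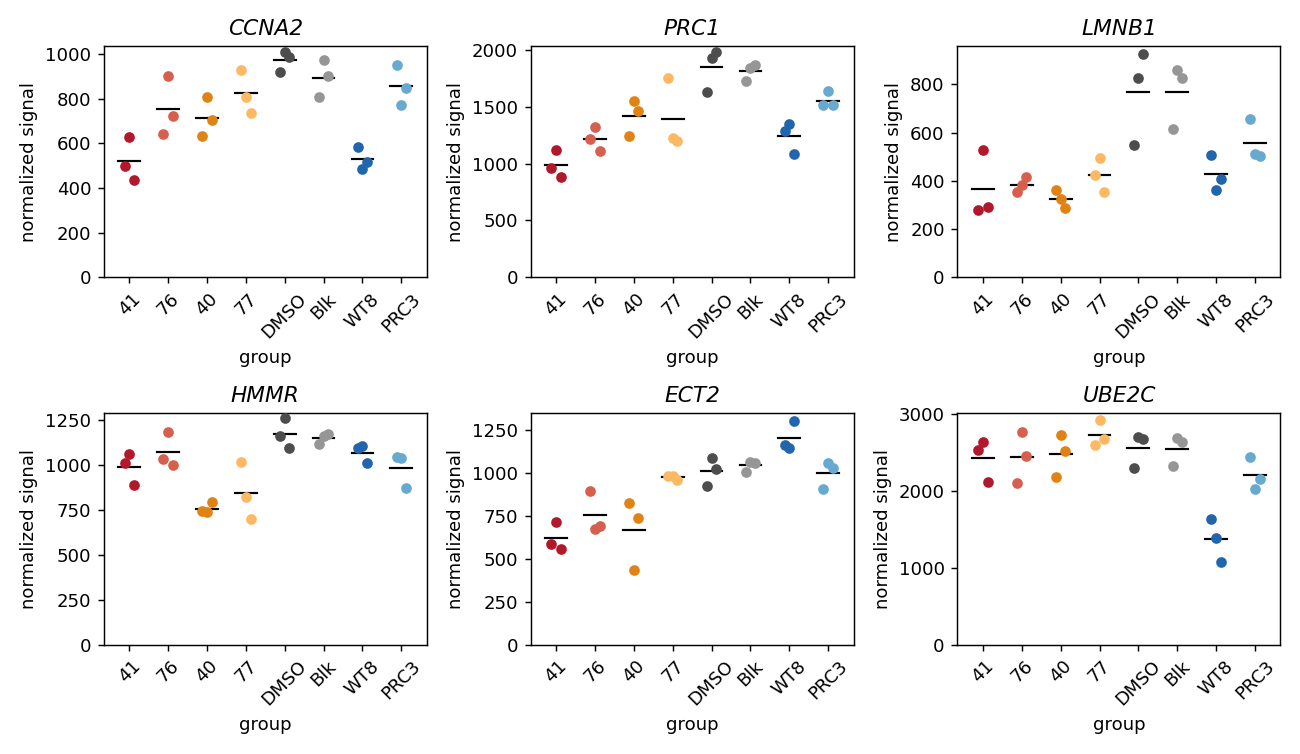
Normalized signal (linear, axis from 0) of 6 members on the 3 arrays of each replicated group (points) with the group mean (line). CCNA2 is low with compound 41 and in WT8, HMMR is lowest with compound 40, and UBE2C is low in WT8. LMNB1 is low with all 4 compounds, and its mean in WT8 (427) is near that with compound 77 (425). At its main probe set, shown here, ECT2 is low with compounds 41 and 40, less so with compound 76 (mean 753, DMSO 1010), and not in WT8.

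DMSO against Blk asks what the vehicle does. Limma called no member, none had an unadjusted p below 0.05, and 0% of all genes were called in either direction. The members' median change was 0.03 on the log2 scale, and 0 members were lower without overlap (background 2.85%). A higher mean with DMSO was found for 28 members, and 2, CENPA and CCNB2, were higher without overlap, a share not given for all genes. The same DMSO arrays are the reference of every compound. CENPA had the smallest p, at 442, 450.2 and 445 with DMSO, against 363, 405 and 276 in Blk (log2 change 0.37, 95% interval -0.15 to 0.90). CCNA2 measured 922, 1008 and 986 with DMSO, against 806, 973 and 904 in Blk, and the groups overlapped. KIF11 measured 434, 505.5 and 514 with DMSO, against 364, 468 and 499.5 in Blk (log2 change 0.14, interval -0.15 to 0.42). MAD2L1 measured 1319.7, 1583 and 1213 with DMSO, against 1069, 1454 and 1186 in Blk (log2 change 0.15, interval -0.19 to 0.50). Of these 4 genes CENPA alone did not overlap.

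WT8 against PRC3 used arrays that no comparison of a compound shares. In WT8 36 members had a lower mean, and limma called 11 of them lower and none higher (27.5%, against 2.72% of all genes called lower and 3.25% called higher). The members' median change was -0.37 on the log2 scale, against 0.01 for all genes. Without overlap, 16 members were lower (background 8.79%) and 1, ECT2, was higher. The genes called were BUB1B, DLGAP5, UBE2C, CCNA2, AURKB, FOXM1, BIRC5, TPX2, CENPE, MKI67 and KIF2C, so each of the 8 roles had a member called.

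BUB1B measured 414, 466 and 453 in WT8, against 792, 795 and 675 in PRC3 (1.695-fold lower, adjusted p = 0.00455). DLGAP5 measured 334, 404 and 330 in WT8, against 608, 623 and 553 in PRC3 (1.68-fold lower, adjusted p = 0.000407). CCNA2 measured 583, 488 and 518 in WT8, against 949, 771 and 847 in PRC3 (1.61-fold lower, adjusted p = 0.00476). These genes were clearly apart in the subline groups and were also among the calls with compound 41. UBE2C measured 1635, 1388 and 1076 in WT8, against 2441, 2018 and 2148 in PRC3 (1.63-fold lower, adjusted p = 0.00242). AURKB, the kinase of the chromosomal passenger complex, measured 185, 173 and 165 in WT8, against 242, 259.5 and 335 in PRC3 (1.58-fold lower, adjusted p = 0.0161). FOXM1 measured 197, 208 and 199 in WT8, against 296, 291 and 369 in PRC3 (1.57-fold lower, adjusted p = 0.0216). UBE2C, AURKB and FOXM1 were not called with any compound in the fit without the block.

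BIRC5 measured 699, 737 and 418 in WT8, against 909, 949 and 909 in PRC3 (1.54-fold lower, adjusted p = 0.0207). TPX2 measured 1586, 1079 and 891 in WT8, against 2014, 1627 and 1485 in PRC3, and WT8 replicate 1 lay above PRC3 replicate 3 (1.47-fold lower, adjusted p = 0.034). WT8 replicate 3 was the array with the high 3 prime to 5 prime ratios. Among the called members it was the lowest WT8 array for BIRC5, TPX2, UBE2C, AURKB, KIF2C, MKI67 and DLGAP5. For BUB1B, CCNA2, FOXM1 and CENPE another WT8 array was lowest. Without WT8 replicate 3, 5 members were called and the median was -0.34. The count was 6 without WT8 replicate 2 and 7 without PRC3 replicate 2 or 3, and BUB1B, CCNA2, DLGAP5 and UBE2C were called whichever of the 6 arrays was left out. When the WT8 and PRC3 arrays alone were fitted, none was called.

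Members that missed the threshold in WT8 included CDC25C, PLK4, AURKA and KIF4A, at log2 changes of -0.68, -0.62, -0.45 and -0.43. CDC25C measured 146, 135 and 76.8 in WT8, against 247, 189 and 135 in PRC3, and the groups overlapped. PLK4, the kinase of centriole duplication, measured 146, 201 and 262 in WT8, against 289, 339 and 285.5 in PRC3. A dimmer probe set of PLK4 was called lower in WT8 (log2 change -1.02, adjusted p = 0.0134 in limma). Another dimmer one changed by -0.69 and was not called. AURKA measured 636, 1041 and 874 in WT8, against 858, 1424 and 1217 in PRC3. The groups overlapped, but within replicate numbers 1, 2 and 3 the differences were -0.43, -0.45 and -0.48 on the log2 scale (adjusted p = 0.098 with the block). KIF4A measured 388, 391 and 387 in WT8, against 595, 489 and 499 in PRC3, and did not. With the replicate number as a block PLK4 (adjusted p = 0.0421) and BUB3 (0.0191) were called as well, which made 13. Calls among all kept probe sets rose with the block from 1597 to 2313. CDK1, MAD2L1, HMMR and ECT2 had higher means in WT8 at their main probe sets. The brightest further probe set of each gene went the other way and was not called. The log2 changes were -0.33 (CDK1), -0.40 (MAD2L1), -0.03 (HMMR) and -0.09 (ECT2), while a dim probe set of ECT2 changed by 0.45. ECT2 measured 1162, 1145 and 1305 in WT8, against 906, 1060 and 1030.0 in PRC3, with no overlap but an adjusted p of 0.475.

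Of the members called with compound 41, 5 were called in WT8 too (BUB1B, CCNA2, DLGAP5, BIRC5 and MKI67). That is 29.4% of the 17 and 45.5% of the 11. Of all 40 members, 27.5% were called in WT8 and 42.5% with compound 41, so these shares are near those of the whole list. Across the 40 members the changes in these comparisons were hardly related (Pearson r = 0.0769, Spearman rho = 0.0979). These are members of a single list and not independent points. The difference of the effects was tested in limma after the values had been seen. ECT2 differed most: its change with compound 41 was lower than that in WT8 by a log2 difference of -0.98 (SE 0.23, 95% interval -1.46 to -0.50, adjusted p = 0.0243, with 1.96% of all probe sets called). With compound 40 the differences were -0.92 for ECT2 (adjusted p = 0.0425) and -0.75 for HMMR (adjusted p = 0.0212), with 1.68% of probe sets called. With compound 77 the difference for UBE2C was 0.80 (adjusted p = 0.0371, with 1.27% of probe sets called). For compound 76 no member was called, and UBE2C had the smallest p (difference 0.63, interval 0.23 to 1.03, adjusted p = 0.134, with 1.42% of probe sets called). No further probe set of these genes passed this test. The brighter of the other 2 for ECT2 gave -0.95 with compound 41 (adjusted p = 0.136) and -0.06 with compound 40 (adjusted p = 0.959), so the difference with compound 40 was not repeated, and that of HMMR gave -0.40 with compound 40 (adjusted p = 0.375). UBE2C had no further probe set that passed the filter. For CCNA2 and BUB1B, called in both comparisons, the changes were -0.92 and -0.79 with compound 41, and -0.69 and -0.76 in WT8.

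**Figure D5:**
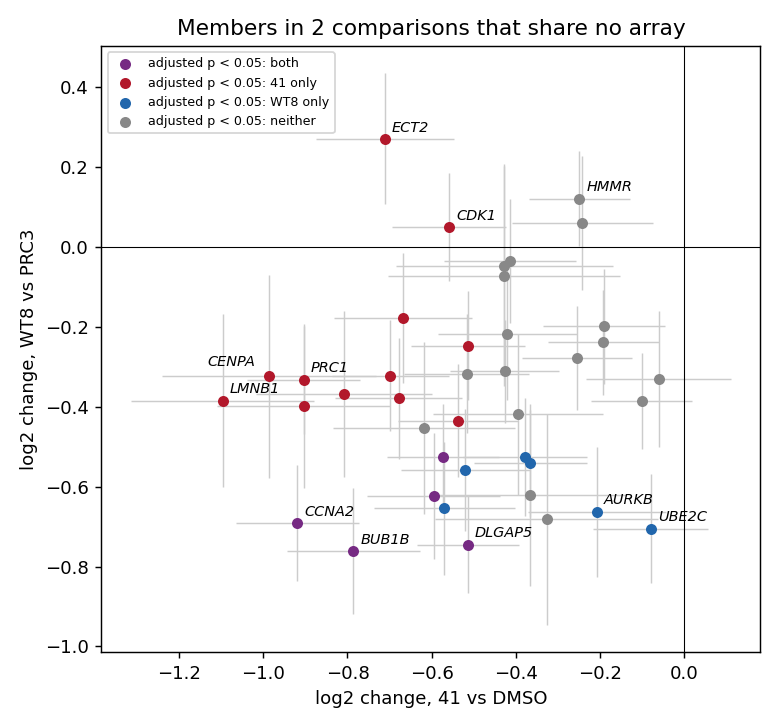
Log2 change of the 40 members with compound 41 against DMSO (horizontal axis) and in WT8 against PRC3 (vertical axis), with SE (grey lines), coloured by adjusted p. All 40 points lie left of 0, CCNA2 and BUB1B are low on both axes, LMNB1, CENPA and PRC1 mainly on the horizontal one, and UBE2C and AURKB mainly on the vertical one.

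PRC3 against Blk compares the second subline group with the untreated cells. No member was called in limma, while 0.921% of all genes were called lower and 0.49% higher. An unadjusted p below 0.05 was found for 5 members (12.5%), against 12.8% of all genes. The members' median change was -0.05 on the log2 scale, and 8 members did not overlap in the lower direction (background 8.88%). DLGAP5 measured 608, 623 and 553 in PRC3, against 416, 450.2 and 424 in Blk (log2 change 0.47, adjusted p = 0.0646). PTTG1, securin, measured 1844, 2231 and 1686 in PRC3, against 2565, 2905 and 2717 in Blk (log2 change -0.51, adjusted p = 0.0907). PLK1, the Polo-like kinase of mitotic entry, measured 299, 299 and 265 in PRC3, against 334, 480.0 and 635 in Blk (log2 change -0.70, adjusted p = 0.246). These 3 genes did not overlap between the groups. LMNB1 measured 655, 509 and 502 in PRC3, against 617, 859 and 828 in Blk, and overlapped (adjusted p = 0.423).

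On the single arrays, 33 members were lower and 7 higher in pTR than in pTV, with no replicate check and no test. The median log2 difference was -0.40, but -0.10 with arrays scaled to 1 median. BIRC5 measured 341 in pTR and 834 in pTV, ASPM 406 in pTR and 906 in pTV, and MKI67 325 in pTR and 695 in pTV. KIF4A went the other way, at 825 in pTR and 529 in pTV. In all, 11 members were at least 1.5-fold lower and 1 at least 1.5-fold higher, against 12.6% and 18.4% of all genes.

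Other probe sets on the same arrays measure some of these genes again. A further 38 probe sets of 21 members passed the filter. With compound 41, 36 of the 38 had a lower mean and 5 were called lower (1.37% of all probe sets), among them 5 of the 15 that belong to called members, all 15 of which had a lower mean. With compound 76, 37 were lower and 1 was called (0.605%). With compound 40, 27 were lower and none was called (0.346%), and the further probe set of NEK2 changed by only -0.22 on the log2 scale. In WT8 30 were lower and 4 were called lower (2.21%), and 8 of the 9 that belong to called members had a lower mean, the exception being a dim probe set of BIRC5 at 0.34. The names of the probe sets for BUB3, CENPA, FOXM1 and PTTG1 mark them as sharing probes with other sequences, so their values may include related transcripts.

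The members varied together from array to array. Over deviations from the group means, the median correlation between members was 0.274 and 80.6% of the 780 pairs were positive. Over the 8 group means the median was 0.619. The points share arrays and normalization, and these values are descriptions. No correlations between other genes were taken, so these values do not set the members apart from other genes.

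Other genes of cell division were taken from 8 lists, of which 152 genes passed the filter. With compound 41, 117 of the 152 had a lower mean, and 24 were called lower and 2 higher. In WT8 126 had a lower mean, with 22 called lower and 1 higher. Of all genes, 1.64% were called lower and 1.7% higher with compound 41, and 2.72% and 3.25% in WT8. The counts of single lists below have the same background. Compound 76 had 4 and compound 40 had 1, all lower (background 0.768% and 0.417% of all genes). With compound 77 and with DMSO against Blk limma called none. An unadjusted p below 0.05 was found for 18 and 0 of the 152, against 8.19% and 2.02% of all genes. In PRC3 against Blk CDC27, a subunit of the anaphase-promoting complex, was 1.90-fold higher and CKS2, a CDK subunit, 1.49-fold lower. Of all genes, 0.49% were called higher and 0.921% lower there.

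Of 25 further kinetochore genes, 4 were lower with compound 41 and 2 in WT8 (list medians -0.40 and -0.32). SKA1, which couples kinetochores to shrinking microtubules, averaged 50.6 ± 25.8 with compound 41 and 139 ± 12.7 with DMSO (2.97-fold lower, adjusted p = 0.00213, SD, n = 3). KNL1, CENPU and ZWILCH were lower with compound 41 too, by 1.66-fold, 1.60-fold and 1.495-fold, while the calls in WT8 were KNTC1 and SPC25. Of 18 condensin and cohesin genes, 4 were lower with compound 41 and 5 in WT8 (medians -0.35 and -0.39). SMC4, a core subunit of condensin, averaged 699 ± 84.7 with compound 41 and 1150 ± 87.5 with DMSO (adjusted p = 0.00051), and 944 ± 76.3 in WT8 and 1355 ± 98.8 in PRC3 (adjusted p = 0.00607). ESPL1, the protease separase, was called in both as well, 1.62-fold lower with compound 41 and 1.64-fold in WT8.

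Among 19 further spindle and cytokinesis genes 5 were lower with compound 41, among them KIF15, KIF18B, KIFC1 and CKAP2, and 3 in WT8, namely TACC3, CDCA8 and CKAP5 (medians -0.40 and -0.37). Of 18 further kinases and regulators, PBK was lower with compound 41, and CDKN3 and NEK6 in WT8 (medians -0.32 and -0.31). The 14 genes of the anaphase-promoting complex had a median of 0.07 with compound 41, with 1 called lower and 1 higher, and of -0.18 in WT8, with 2 called lower and 1 higher. FBXO5, an inhibitor of that complex, was 1.70-fold lower with compound 41, and ANAPC13 was 1.43-fold higher there and 1.51-fold higher in WT8. CDC27 and ANAPC11 were lower in WT8, by 1.80-fold and 1.58-fold.

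Of 21 transcription factors and pocket proteins of the cell cycle, E2F7 and E2F8, repressors of the E2F family, were lower with compound 41, by 1.84-fold and 2.09-fold. E2F7 averaged 263 ± 70.9 in WT8 and 571 ± 72.4 in PRC3 (2.21-fold lower, adjusted p = 5.29e-05). MYBL2, which encodes B-Myb, was lower in WT8 (1.71-fold) and with compound 76 (1.58-fold, adjusted p = 0.0228). The list medians were -0.13 with compound 41 and -0.04 in WT8.

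Among 11 genes that restrain the cycle, CDKN1A, which encodes the CDK inhibitor p21, averaged 1383 ± 456 with compound 41 and 373 ± 192 with DMSO (3.91-fold higher, adjusted p = 0.00392, SD, n = 3). CDKN2D was 2.26-fold lower with compound 41, near the floor at a mean of 28.9, and GADD45B was 2.37-fold lower in WT8. Of 26 S phase genes, 6 were lower with compound 41 and 5 in WT8 (medians -0.48 and -0.46). MCM7, a subunit of the replicative helicase, was lower with compounds 41, 76 and 40 and in WT8, by 2.03-fold, 1.89-fold, 2.05-fold and 2.05-fold. MCM5, GINS1 and FEN1 were lower with compound 41, and MCM5, MCM2 and FEN1 in WT8. SMC4 and KNL1 were the other calls with compound 76, by 1.41-fold and 1.61-fold lower.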

How the data were processed

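Labelled RNA was hybridised to 26 Affymetrix U133 Plus 2.0 arrays, and the authors deposited a linear signal intensity for each probe set. The submitters' processing notes name MAS5; its version and scaling target are not stated. Per the labels, signals were limited to 20 and 16000 and probe sets filtered on variation, but 45.5% of deposited values lie below 20 and all 54613 probe sets are present. Here 62 control probe sets were left out, and the 26 deposited columns were quantile normalized, limited to the same floor and ceiling and put on a log2 scale. Of all probe sets, 35013 reached the array median on 3 or more of the 24 replicated arrays and were kept. The fit used limma 3.58.1 under R 4.3.3 (eBayes with a trend, 16 residual degrees of freedom, all 24 arrays in 1 fit), and the Benjamini-Hochberg adjusted p was taken over all kept probe sets. SE is that of the log2 change, and folds come from mean log2 signals. The code was tested on simulated data.

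Genes were named from the platform annotation, where 41091 probe sets had 1 gene, 1801 several and 11721 none, and 41037 of the first were found in RefSeq. Counts over all genes use 1 probe set a gene, and probe sets with several genes gave no names. Members and lists were chosen with earlier results of these data known. Array values are given for up to 8 called members of a comparison with the largest changes and up to 4 uncalled ones, or for the 4 with the smallest p where none was called, with further members where they differ between comparisons. From other lists up to 4 called genes a comparison are named. Arrays with the same replicate number deviated together for all 3 numbers (correlation of deviations above 0.1) in compound 41, compound 76 and Blk with DMSO, in WT8 with PRC3 and in compound 41 with compound 76, and this pairing comes from the data and the numbers in the titles, so a fit with the replicate block stands beside those results. Alternatives covered normalization, floor, filter, probe set choice, the groups fitted and each array left out. For pairs of compounds p was adjusted over all kept probe sets of 6 pairs, in place of the members alone as first planned, and the test of effect differences was added after values were seen. The number of arrays limits the precision.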

Additional observations from a re-analysis of the deposited data

Results flagged for a closer look

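Several members differed between compounds, or between a compound's effect and the difference of WT8 and PRC3, by a test of the difference itself. CCNA2 was lower with compound 41 than with compound 77 by a log2 difference of -0.68, where 0.238% of all genes were called lower. NEK2 was lower with compound 40 than with compound 77 by -0.73, where 0.311% were. Both calls ended with arrays scaled to 1 median or with signals as deposited. The change of ECT2 with compound 41 was below its change in WT8 by -0.98, and that with compound 40 by -0.92. A further ECT2 probe set gave -0.95 with compound 41 (adjusted p = 0.136 in limma) and -0.06 with compound 40 (adjusted p = 0.959), so the second was not repeated there. The change of HMMR with compound 40 was below its change in WT8 by -0.75, and a further probe set gave -0.40 (adjusted p = 0.375 in limma). The change of UBE2C with compound 77 was above its change in WT8 by 0.80. The last 4 tests were chosen after the values had been seen. Of all kept probe sets, 1.96% (compound 41), 1.68% (compound 40) and 1.27% (compound 77) were called in the tests against WT8. The single member called with compound 41 and with compound 77, out of 40, is near these shares. Single arrays that stand apart could not be sought by a formal rule in groups of 3.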

How the results depend on the processing

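No call reversed its direction under the alternatives run, and the median changes of the members with compounds 41, 76, 40 and 77 and in WT8 stayed negative; calls were less stable. The counts below are for compounds 41, 76 and 40, WT8, the 8-group test and pairs of compounds, against 17, 2, 3, 11, 26 and 2 in the reported fit. With arrays scaled to 1 median they were 3, 0, 1, 7, 14 and 0, and the WT8 median was -0.468. Of all kept probe sets, that scaling called 211, 111, 49 and 742 lower for compounds 41, 76 and 40 and WT8. The reported fit called 478, 212, 121 and 775 lower. With signals as deposited compound 76 and compound 40 had 1 call each and pairs of compounds 0. Among all kept probe sets 190 (compound 76) and 60 (compound 40) were then called lower. Without the filter on low signals compound 41 had 8, pairs 0 and PRC3 against Blk 1. The filter the labels name left 4881 probe sets and 7 members, and gave 3, 1, 1, 1, 2 and 0. With the 2 groups alone in the fit, compound 41 had 3 and compounds 76 and 40 and WT8 had 0. The replicate block gave 4 for compound 76, 6 for compound 40, 1 for compound 77, 2 for PRC3 against Blk and 7 for pairs of compounds. Among all kept probe sets the block raised the calls too. They rose from 474 to 849 (compound 76), 240 to 534 (compound 40), 60 to 175 (compound 77) and 362 to 697 (PRC3 against Blk). The numbers did not pair arrays by the rule used for compounds 40 and 77 with DMSO or for PRC3 with Blk. The block added the calls named above and left the other paired calls as they were.

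Leaving out 1 array moved the counts between 3 and 18 for compound 41, 0 and 2 for compound 76, 0 and 5 for compound 40, 0 and 2 for compound 77, 5 and 9 for WT8, 21 and 29 for the 8-group test and 0 and 8 for pairs. The medians moved between -0.586 and -0.421 for compound 41 and between -0.225 and -0.0791 for compound 77. Counts over all probe sets are not given for these fits. Chosen after seeing the data, leaving out replicates 2 and 3 of compound 40 together, which leaves 1 array assumed to vary like the other groups, gave 0 calls and a median of -0.42, and leaving out the PRC3 and WT8 arrays gave 4 for compound 76 and 4 for pairs. The pTR median was -0.0986 with arrays scaled to 1 median. The share of higher among all called probe sets was 46.2%, 55.3% and 51.5% for compounds 41 and 76 and WT8, and 58.9%, 65.6% and 37.3% with arrays scaled to 1 median. For compound 40 and PRC3 against Blk it was 49.6% and 40.3%, and 72% and 52.4% with signals as deposited. The cause of these moves was not tested, except that fewer arrays or members enter where they were left out.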
